A study of Mus musculus with 6 samples.

Results

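The genes described here are the hnRNP, SRSF, CLK and cold-inducible RNA-binding protein genes of mouse primary myoblasts, taken from a table of expression values by symbol: every gene whose symbol starts with Hnrnp, every Srsf gene with a number, Clk1 to Clk4, Rbm3 and Cirbp. Pseudogenes with hyphenated symbols were not included, and those copying Hnrnpa1 and Rbm3 stayed at or below 1.38 FPKM. This gave 37 of 54834 genes in the table, of which 20 were hnRNP, 11 SRSF, 4 CLK and 2 cold-inducible genes. The myoblasts carried the Pax7-ZSGreen reporter and had been kept for more than 2 weeks at 20% pO2 (normoxia), 4% pO2 (moderate hypoxia) or 1% pO2 (severe hypoxia). At each pO2 they received either PT2385, a small-molecule inhibitor of HIF-2α, at 1 µM or the vehicle, 0.1% DMSO, for 48 h in growth medium. Each of the 6 conditions was sequenced as 1 library made from RNA pooled over 9 cultures, so differences between cultures were averaged before sequencing and cannot be seen. The values are FPKM, fragments mapped to a gene scaled for transcript length and library size, so that levels can be compared between genes.

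Pre-mRNA splicing is steered by RNA-binding proteins that sit on exons and introns. SR proteins, encoded by the Srsf genes, usually bind exonic enhancers and recruit the spliceosome, whereas hnRNP proteins coat nascent RNA and often, though not always, repress nearby splice sites. CLK kinases phosphorylate the arginine-serine domains of SR proteins and thereby release them from nuclear speckles, and Rbm3 and Cirbp encode small glycine-rich RNA-binding proteins best known for rising in mildly cooled cells and described as hypoxia-inducible in other cell types. Many of these genes control their own level by splicing in poison exons or retaining introns, which sends the transcript to nonsense-mediated decay or keeps it in the nucleus.

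Annotation lists such transcripts for much of the group. It does not show that a gene controls its own level, and the number of transcripts annotated per gene was not taken into account. Of the 36 members with a mean of at least 1 FPKM, 25 (69.4%) have a transcript annotated as a target of nonsense-mediated decay in GENCODE release M21, against 30.0% of the 10853 protein-coding genes at that level. A transcript with a retained intron is annotated for 77.8% of these members and for 61.4% of the coding genes. The table gives 1 value per gene, so productive and poison-exon isoforms were not separated.

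Srsf12 lay between 0 and 0.366 FPKM and was left out of the tests. The 5 most abundant were Hnrnpa2b1, Hnrnpa1, Hnrnpk, Hnrnpab and Hnrnpa3, with means of 675, 668, 600.5, 560.0 and 518 FPKM over the libraries not listed at 0. The least abundant members of the remaining 36 were Clk4, Hnrnph3 and Clk2, with means of 26.3, 26.4 and 27.1 FPKM. Hnrnpa2b1, whose proteins package and sort RNA, was listed at 0 in the 20% PT2385 and the 1% vehicle library. It had 829 FPKM in the 20% vehicle library, 633 and 656 FPKM in the 4% PT2385 and vehicle libraries and 581 FPKM in the 1% PT2385 library. Such a 0 beside high values occurred in 107 genes and may be a failed estimate, so both values were left out and Hnrnpa2b1 received no test, which leaves 35 members tested.

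Checks of the libraries bear on these genes. The size of the smallest nonzero values put the depth at 18200000 to 21200000 fragments per library. For members other than Srsf12 it put the counting error of a difference between 2 libraries at 0.0094 to 0.137 on the log2 scale. The 12 HIF target genes used as a check of the labels were all higher at 4% and at 1% than at 20% pO2. Of 9 myoblast markers 8 reached 1 FPKM, and Myf5 stayed at or below 0.481 FPKM. The summed myoblast markers were 1096 and 994 FPKM in the 4% PT2385 and vehicle libraries and 1104 and 1057 FPKM in the 1% PT2385 and vehicle libraries, against 1626 and 1606 FPKM in the 20% PT2385 and vehicle libraries. Myod1 alone made up most of that difference, with 951 and 921 FPKM at 20% pO2, 584 and 501 FPKM at 4% pO2 and 625 and 571 FPKM at 1% pO2 in the PT2385 and vehicle libraries. The 8 differentiated muscle markers, of which 7 reached 1 FPKM, summed to between 37.2 and 126 FPKM and were highest in the 4% vehicle library. The 6 leukocyte markers, of which 3 reached 1 FPKM, summed to 103 and 93.6 FPKM in the 4% PT2385 and vehicle libraries through Laptm5. Their sums were 22.9 and 20.7 FPKM at 1% and 5.04 and 4.4 FPKM at 20% pO2 in the PT2385 and vehicle libraries. Cd68 had 2.78 and 2.08 FPKM at 20%, 9.88 and 10.4 FPKM at 4% and 14.6 and 13.5 FPKM at 1% pO2 in the same order. Ptprc was at or below 0.01 FPKM and Adgre1 at 0. Of 4 adipocyte markers 3 reached 1 FPKM, and their sum was 22.0 FPKM in the 1% PT2385 library and at most 3.29 FPKM in the other 5. The 6 fibro-adipogenic markers, 2 of them reaching 1 FPKM and Lum being at 0 throughout, also summed higher at lower pO2. Their sums were 3.52 and 2.47 FPKM at 20%, 6.30 and 5.62 FPKM at 4% and 13.8 and 13.4 FPKM at 1% pO2 in the PT2385 and vehicle libraries. The 4 endothelial markers summed to at most 1.09 FPKM with 1 reaching 1 FPKM. The part of these shifts in the results below was not tested, and in bulk RNA fewer cells of a type and less RNA per cell cannot be told apart.

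The first question was which splicing regulators changed with chronic hypoxia. Expression was compared with limma on log2(FPKM + 1) in a model of pO2 and treatment fitted over all genes, with Benjamini-Hochberg adjustment and an adjusted p below 0.05 as the limit for a call. In this fit the PT2385 and vehicle libraries of a pO2 level stand in for replicates, after a treatment difference common to all levels is removed. The p-values therefore rest on how far the PT2385 minus vehicle difference varies between pO2 levels. They do not measure how far separately adapted cultures would differ. All log2 differences below are on the log2(FPKM + 1) scale.

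At 1% pO2 the members moved mainly downward. Of 35 tested members 24 were lower than at 20% pO2, where 22.8% of all genes tested were called lower, and 4 were higher, where 25.8% of all genes were. The lower ones were 9 of 10 SRSF genes and 15 of 19 hnRNP genes, and the higher ones were Cirbp, Rbm3, Clk3 and Clk1. Members are abundant genes, and of all genes averaging 25 FPKM or more 33.9% were called lower. At 4% pO2 13 members (37.1%) were lower, against 23.5% of all genes and 34.1% of those averaging 25 FPKM or more. Their share was thus close to the background of abundant genes. A further 5 were higher, against a background of 28.5% of all genes. The 13 lower ones were 6 SRSF and 7 hnRNP genes, and the 5 higher ones were Cirbp, Rbm3, Clk3, Hnrnph2 and Hnrnpul1. Both 1% libraries lay below both 20% libraries in 27 of 35 members, against 36.8% of all genes, and above them in 5, against 38.7% of all genes. Both 4% libraries lay below both 20% libraries in 19 members, against 35.3% of all genes, and above them in 7, against 39.4% of all genes.

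The changes were small for most members. The median difference of the SRSF genes was -0.34 in the PT2385 pair and -0.33 in the vehicle pair at 1% against 20% pO2, and that of the hnRNP genes was -0.25 in the PT2385 pair and -0.28 in the vehicle pair. Over all genes tested the median was 0.005 in the PT2385 pair and 0.01 in the vehicle pair. Among genes averaging 25 FPKM or more it was -0.05 in the PT2385 pair and -0.04 in the vehicle pair. At 4% pO2 the SRSF median was -0.19 in the PT2385 pair and -0.17 in the vehicle pair. The hnRNP median was -0.10 in the PT2385 pair and -0.11 in the vehicle pair. At this level the median of all genes tested was 0.025 in the PT2385 pair and 0.024 in the vehicle pair. That of genes averaging 25 FPKM or more was -0.05 in the PT2385 pair and -0.04 in the vehicle pair. Summed over the family, the 10 SRSF genes held 1881 and 1888 FPKM at 20% pO2, 1649.8 and 1657 FPKM at 4% pO2 and 1502 and 1496 FPKM at 1% pO2 in the PT2385 and vehicle libraries. The 19 hnRNP genes without Hnrnpa2b1 held 5429.6 and 5479 FPKM at 20% pO2, 5086 and 5083 FPKM at 4% pO2 and 4551 and 4536 FPKM at 1% pO2 in the PT2385 and vehicle libraries. Both sums thus stood in the order 20%, 4%, 1% under either treatment, and in neither did libraries of different pO2 levels overlap.

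**Figure D1:**
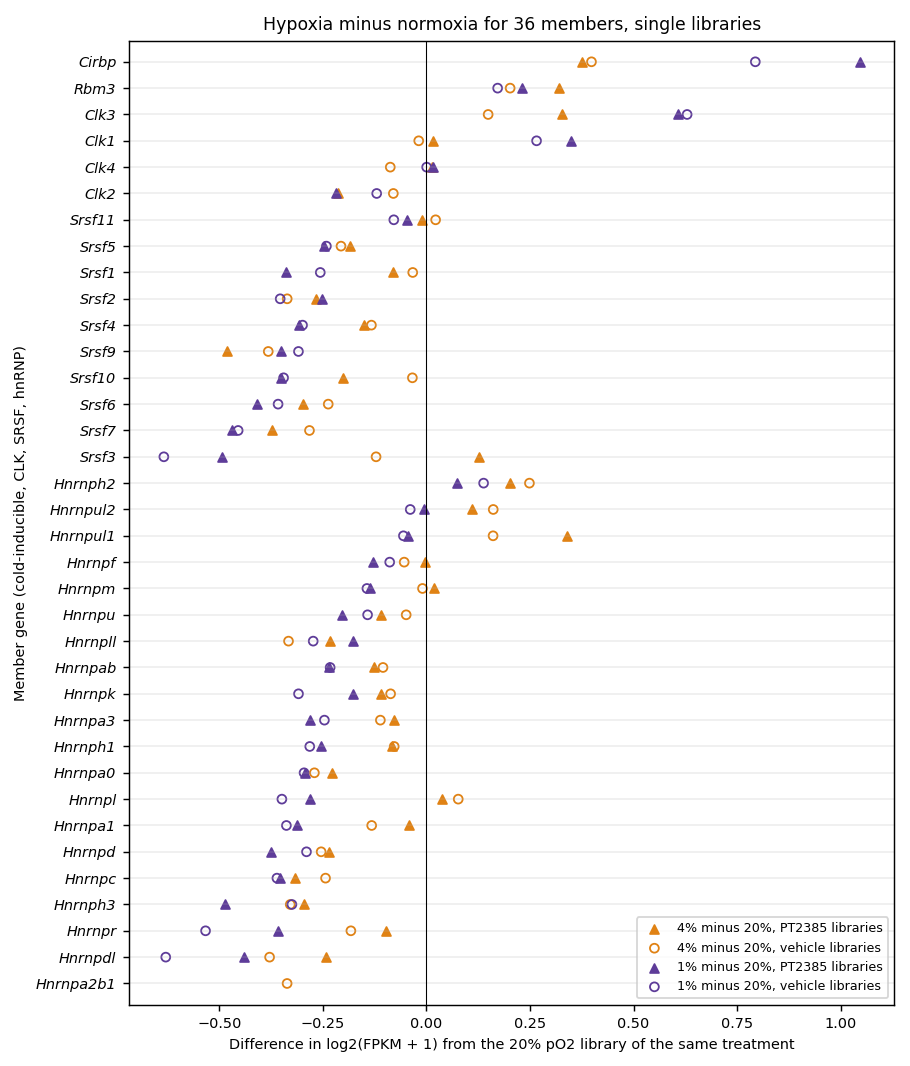
Difference in log2(FPKM + 1) between a hypoxic library and the 20% pO2 library of the same treatment (x axis) for 36 members (rows), grouped by family. Filled triangles are PT2385 libraries, open circles vehicle libraries, orange 4% pO2 and purple 1% pO2. SRSF and hnRNP genes lie mostly left of 0, with 1% further left than 4%, and Cirbp lies furthest right at 1.05 in the PT2385 pair and 0.79 in the vehicle pair. Hnrnpa2b1 has 1 point because of its values listed at 0.

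Cirbp, which encodes the cold-inducible RNA-binding protein and lies at chr10:80165985-80172786 on the plus strand (GRCm38), showed the widest rise of the group. It had 25.1 and 27.0 FPKM at 20% pO2, 32.9 and 35.97 FPKM at 4% pO2 and 53.0 and 47.6 FPKM at 1% pO2 in the PT2385 and vehicle libraries. It was higher at each step toward lower pO2 in both treatments, and no library overlapped one of another pO2 level. The difference from 20% pO2 was 0.92 ± 0.08 (SE) at 1% pO2 (limma, adjusted p = 0.000445) and 0.39 ± 0.08 (SE) at 4% pO2 (adjusted p = 0.00966), and 1% exceeded 4% pO2 by 0.53 ± 0.08 (SE) (adjusted p = 0.00408). The call at 4% pO2 was lost without the 20% PT2385 library or without the 4% vehicle library, with an adjusted p of up to 0.0705. Rbm3, its paralog on the X chromosome at chrX:8138975-8145880 on the minus strand, was far more abundant and took a different course. It had 316 and 316 FPKM at 20% pO2, 394 and 364 FPKM at 4% pO2 and 371 and 357 FPKM at 1% pO2 in the PT2385 and vehicle libraries. All 4 hypoxic libraries lay above both normoxic ones, with the highest level at 4% pO2 under either treatment. Its difference was 0.26 ± 0.04 (SE) at 4% pO2 (limma, adjusted p = 0.00356) and 0.20 ± 0.04 (SE) at 1% pO2 (adjusted p = 0.00982), whereas the difference between 1% and 4% pO2 did not pass (adjusted p = 0.283). At 1% pO2 its call was lost without the 20% PT2385 library or without either 1% library, with an adjusted p of up to 0.075.

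The promoter stretches of Cirbp, Srsf3 and Srsf7 are printed because Cirbp rose most, Srsf3 fell most and Srsf7 was lower at both pO2 levels. They were taken from RefSeq starts (GRCm38.p6), which covered 33 of the 37 members in 46 windows, and each ends where the next annotated exon of the gene begins. For Srsf3 and Srsf7 that is the first exon, whereas the Cirbp stretch lies inside the annotated gene, which starts upstream of it. Each is written 5′ to 3′ on the gene's strand. Capitals mark the core of the hypoxia response element (ACGTG or GCGTG, or CACGT or CACGC on the other strand) and the mild cold response element (TCCCCGCC or GGCGGGGA), the element through which Sp1 is known to act on Cirbp in mouse cells.
Cirbp, chr10:80167589-80167777, plus strand: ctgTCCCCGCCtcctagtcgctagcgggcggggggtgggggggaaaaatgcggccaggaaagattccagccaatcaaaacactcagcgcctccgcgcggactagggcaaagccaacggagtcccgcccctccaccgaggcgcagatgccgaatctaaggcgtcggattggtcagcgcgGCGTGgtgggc
Srsf3, chr17:29032410-29032627, plus strand: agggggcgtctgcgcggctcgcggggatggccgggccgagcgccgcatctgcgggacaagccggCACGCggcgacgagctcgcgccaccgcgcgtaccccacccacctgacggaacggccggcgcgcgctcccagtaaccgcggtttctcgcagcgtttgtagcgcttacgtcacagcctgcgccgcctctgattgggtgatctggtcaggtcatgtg
Srsf7, chr17:80207308-80207555, minus strand: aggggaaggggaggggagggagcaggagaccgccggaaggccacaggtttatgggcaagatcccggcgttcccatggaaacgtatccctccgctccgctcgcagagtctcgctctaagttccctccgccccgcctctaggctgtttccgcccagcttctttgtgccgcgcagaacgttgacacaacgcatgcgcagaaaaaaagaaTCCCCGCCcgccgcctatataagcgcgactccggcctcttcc
The Cirbp stretch holds a mild cold response element and a hypoxia core, the Srsf3 stretch a hypoxia core and the Srsf7 stretch a mild cold response element. Both the rising and the falling genes therefore carry such letters. In the 250 bases before the start, a hypoxia core was found in 63.0% of the 46 member windows, in 57.6% of the windows of genes with a mean of at least 1 FPKM and in 38.6% of all windows. The median G and C content of these 3 sets was 68.0%, 60.4% and 52.4%. The mild cold response element was found in 8.7% of member windows, 8.32% of windows of genes at that level and 4.64% of all windows. Clk1, Hnrnpll, Hnrnpul2 and Rbm3 had no window. These matches describe letters only.

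The CLK kinases split among themselves. Clk3 lies at chr9:57750624-57765860 on the minus strand, and its exons overlap those of Edc3 on the other strand. It had 33.7 and 35.4 FPKM at 20% pO2, 42.5 and 39.3 FPKM at 4% pO2 and 51.9 and 55.3 FPKM at 1% pO2 in the PT2385 and vehicle libraries. It rose stepwise with falling pO2 in both treatments, by 0.24 ± 0.07 (SE) at 4% pO2 (limma, adjusted p = 0.0264) and 0.62 ± 0.07 (SE) at 1% pO2 (adjusted p = 0.000867). The call at 4% pO2 was lost without either 20% library or without the 4% PT2385 library, with an adjusted p of up to 0.151. Edc3, an mRNA decapping factor, stayed between 8.80 and 10.3 FPKM in all 6 libraries. Clk1, at chr1:58410189-58424066 on the minus strand, is known for autoregulation through an intron that is held back and spliced out under stress. It had 49.2 and 56.4 FPKM at 20% pO2, 49.7 and 55.7 FPKM at 4% pO2 and 63.0 and 68.0 FPKM at 1% pO2 in the PT2385 and vehicle libraries. Clk1 did not pass at 4% against 20% pO2 (limma, adjusted p = 0.977) and was higher at 1% pO2, by 0.31 ± 0.05 (SE) against 20% (limma, adjusted p = 0.00344) and 0.31 ± 0.05 (SE) against 4% pO2 (adjusted p = 0.00433). The call against each held in every fit run, with adjusted p of 0.00268 to 0.0319 for 1% against 20% pO2. Clk2 and Clk4 lay between 25.1 and 29.7 FPKM in all libraries and passed no test. Clk2 was lower in all 4 hypoxic libraries than in both normoxic ones, with a difference of -0.17 ± 0.06 (SE) at 1% pO2 (limma, adjusted p = 0.0618), and Clk4 differed by 0.01 ± 0.06 (SE) (adjusted p = 0.915).

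Cirbp and Clk3 were the members at least 1.5-fold higher at 1% than at 20% pO2 in both treatments, which 11.2% of all genes were. No member was 1.5-fold lower in both, against 4.49% of all genes. At 4% pO2 no member passed this fold in either direction, against 11.8% of all genes higher and 4.89% lower.

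**Figure D2:**
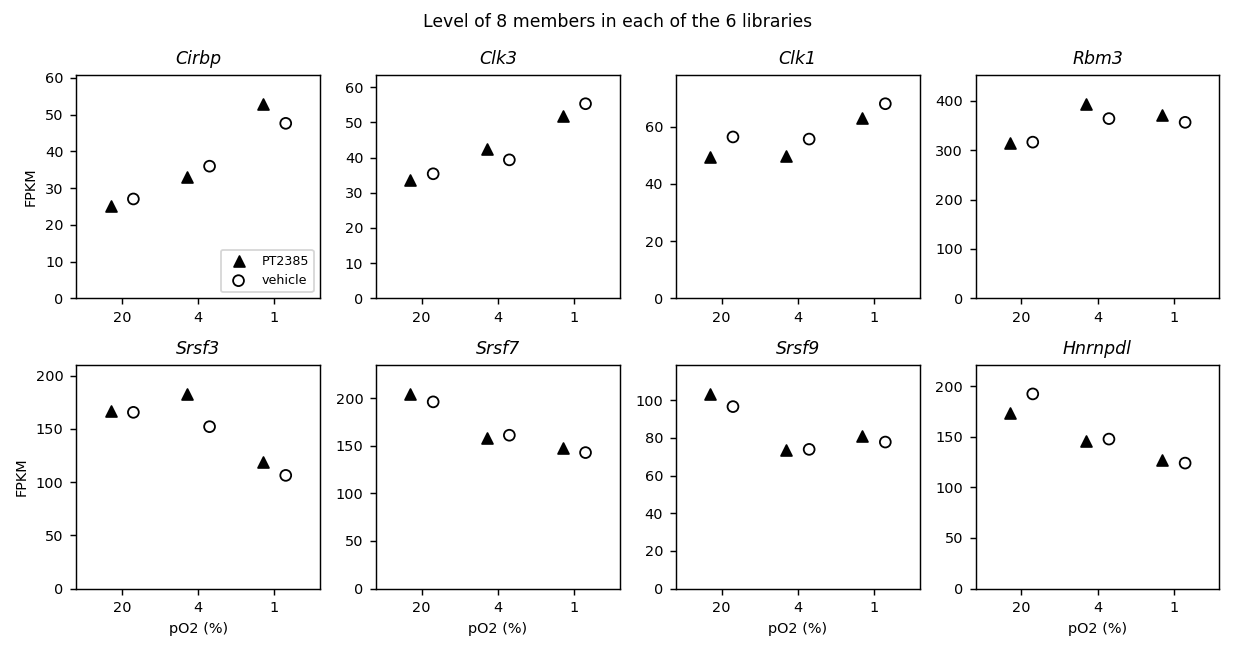
FPKM (y axis, from 0) of 8 members against pO2 (x axis) in the 6 libraries, with filled triangles for PT2385 and open circles for vehicle. Cirbp and Clk3 climb at both steps, Clk1 at the 1% step, and Rbm3 at the 4% step. Srsf7 and Hnrnpdl fall at both steps, Srsf3 at 1% pO2 alone, where it had 119 FPKM with PT2385 and 106 FPKM with vehicle, and Srsf9 at 4% pO2 with no further fall.

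Among the SR genes the lowest relative to normoxia was Srsf3, the smallest SR protein and a link between splicing, polyadenylation and mRNA export, at chr17:29032628-29043373 on the plus strand. It had 167 and 166 FPKM at 20% pO2, 183 and 152 FPKM at 4% pO2 and 119 and 106 FPKM at 1% pO2 in the PT2385 and vehicle libraries. The 4% libraries lay on either side of the normoxic ones, and both 1% libraries lay below all 4 others. Srsf3 differed by -0.56 ± 0.06 (SE) at 1% against 20% pO2 (limma, adjusted p = 0.0011) and by -0.57 ± 0.06 (SE) at 1% against 4% pO2 (adjusted p = 0.00158), but by 0.00 ± 0.06 (SE) at 4% against 20% pO2 (adjusted p = 0.972). Srsf7, its closest paralog with an added zinc knuckle, had 205 and 196 FPKM at 20% pO2, 158 and 161 FPKM at 4% pO2 and 148 and 143 FPKM at 1% pO2 in the PT2385 and vehicle libraries. It fell at both levels, with differences of -0.33 ± 0.04 (SE) at 4% pO2 (limma adjusted p = 0.00151) and -0.46 ± 0.04 (SE) at 1% pO2 (adjusted p = 0.00049).

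Srsf9 and Srsf2 reached their lower level already at 4% pO2. Srsf9, a small SR protein related to Srsf1, had 103 and 96.6 FPKM at 20% pO2, 73.7 and 73.9 FPKM at 4% pO2 and 80.9 and 77.8 FPKM at 1% pO2 in the PT2385 and vehicle libraries. Srsf2, also called SC35, a speckle protein that binds exonic enhancers, had 429.9 and 432 FPKM at 20% pO2, 357 and 342 FPKM at 4% pO2 and 361 and 338 FPKM at 1% pO2 in the PT2385 and vehicle libraries. In each gene all 4 hypoxic libraries lay below both normoxic ones. Srsf9 differed by -0.43 at 4% pO2 (limma, adjusted p = 0.000779) and -0.33 at 1% pO2 (adjusted p = 0.00236), and Srsf2 by -0.30 (adjusted p = 0.00172) and -0.30 (adjusted p = 0.00188). The step between 4% and 1% pO2 passed for neither (adjusted p = 0.12 for Srsf9 and 0.993 for Srsf2). The exons of Srsf2 overlap those of Mfsd11 on the other strand, which had 28.0 to 32.8 FPKM in hypoxia against 15.2 and 18.8 FPKM in the normoxic PT2385 and vehicle libraries. Whether counting used strand is not given in the sources used here, so reads of overlapping genes on opposite strands may not have been told apart. Exons of Hnrnpab, Hnrnpk, Hnrnpu and Hnrnph3 likewise overlap those of Phykpl, Rmi1, Cox20 and Rufy2, which had 4.01 to 57.7 FPKM. On the same strand, exons of Hnrnpm overlap those of March2, and exons of Hnrnpul2 those of AC129217.1. Strand could not separate such reads, and no level was found under the names March2 and AC129217.1. Clk4 and Hnrnpa3 overlap Gm25082, at most 3.47 FPKM, and Gm24574, at 0, on the same strand. How reads shared by near-identical copies were assigned is not given either.

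Srsf1, Srsf4, Srsf5, Srsf6 and Srsf10 completed the SR genes that were lower at 1% pO2. Srsf1, the founding member of the family and a factor in splice site choice and mRNA stability, had 305 and 314 FPKM at 20% pO2, 288 and 307 FPKM at 4% pO2 and 241 and 263 FPKM at 1% pO2 in the PT2385 and vehicle libraries. It passed at 1% pO2, with -0.30 ± 0.04 (SE) (limma, adjusted p = 0.00172), and missed at 4% pO2 (adjusted p = 0.255). Srsf10, an SR protein that acts as a splicing repressor when dephosphorylated, for example after heat shock, had 102 and 111 FPKM at 20% pO2, 88.3 and 108 FPKM at 4% pO2 and 79.5 and 87.2 FPKM at 1% pO2 in the PT2385 and vehicle libraries. It likewise passed at 1% pO2 (-0.35, limma adjusted p = 0.00407) and not at 4% pO2 (adjusted p = 0.128). Srsf6, a regulator of alternative exons that is related to Srsf4 and Srsf5, had 192 and 190.4 FPKM at 20% pO2, 156 and 161 FPKM at 4% pO2 and 144 and 148 FPKM at 1% pO2 in the PT2385 and vehicle libraries. Srsf5 had 204 and 205 FPKM at 20% pO2, 179.6 and 178 FPKM at 4% pO2 and 172 and 174 FPKM at 1% pO2 in the PT2385 and vehicle libraries. Srsf4 had 63.0 and 60.6 FPKM at 20% pO2, 56.7 and 55.2 FPKM at 4% pO2 and 50.7 and 49.0 FPKM at 1% pO2 in the PT2385 and vehicle libraries. These 3 paralogs fell at both pO2 levels, with differences of -0.27, -0.20 and -0.14 at 4% pO2 and -0.38, -0.24 and -0.30 at 1% pO2 for Srsf6, Srsf5 and Srsf4. The adjusted p (limma) was 0.00074, 0.00301 and 0.00286 for the same genes at 1% pO2. The call of Srsf4 at 4% pO2 (adjusted p = 0.04) was lost whichever library was left out, with an adjusted p of 0.0674 to 0.175. Srsf11, a co-activator with an SR domain, had 106 to 118 FPKM across the 6 libraries and passed no test.

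The hnRNP genes that fell most were Hnrnpdl and Hnrnpr. Hnrnpdl, a paralog of Hnrnpd whose human counterpart is mutated in a limb-girdle muscular dystrophy, had 173 and 192 FPKM at 20% pO2, 146 and 148 FPKM at 4% pO2 and 127 and 124 FPKM at 1% pO2 in the PT2385 and vehicle libraries. It was lower at both pO2 levels, with differences of -0.31 ± 0.05 (SE) at 4% (limma, adjusted p = 0.00534) and -0.53 ± 0.05 (SE) at 1% against 20% pO2 (adjusted p = 0.000775). Hnrnpr, which binds mRNA in the nucleus and in axons, had 90.0 and 95.3 FPKM at 20% pO2, 84.0 and 83.8 FPKM at 4% pO2 and 70.0 and 65.5 FPKM at 1% pO2 in the PT2385 and vehicle libraries. It was lower at 1% pO2, with a difference of -0.45 ± 0.05 (SE) (limma, adjusted p = 0.00151), and 4% pO2 missed the limit (adjusted p = 0.0784). In the vehicle libraries alone, Srsf3 and Hnrnpdl were the members more than 1.5-fold lower at 1% than at 20% pO2.

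Hnrnpd, Hnrnpc, Hnrnpa0 and Hnrnph3 were lower at both pO2 levels. Hnrnpd, known as AUF1 for its binding to AU-rich elements, had 375 and 377 FPKM at 20% pO2, 318 and 316 FPKM at 4% pO2 and 289 and 308 FPKM at 1% pO2 in the PT2385 and vehicle libraries. Hnrnpc, which binds uridine tracts and masks cryptic exons, had 343 and 329 FPKM at 20% pO2, 275 and 278 FPKM at 4% pO2 and 268 and 256 FPKM at 1% pO2 in the PT2385 and vehicle libraries. Hnrnpa0, an A/B-type protein encoded by a single-exon gene, had 177 and 174 FPKM at 20% pO2, 151 and 144 FPKM at 4% pO2 and 144 and 141 FPKM at 1% pO2 in the PT2385 and vehicle libraries. For these 3 genes all 4 hypoxic libraries lay below both normoxic ones, and the differences at 4% pO2 (-0.24, -0.28 and -0.25) were most of those at 1% pO2 (-0.33, -0.36 and -0.29). Their adjusted p (limma) was 0.00146, 0.000931 and 0.00181 at 1% pO2, and none of the 3 passed between 1% and 4% pO2 (adjusted p = 0.13, 0.155 and 0.381). Hnrnph3 had 32.0 and 30.2 FPKM at 20% pO2, 25.9 and 23.8 FPKM at 4% pO2 and 22.5 and 23.9 FPKM at 1% pO2 in the PT2385 and vehicle libraries, a difference of -0.41 at 1% pO2 (limma, adjusted p = 0.00481) and -0.31 at 4% pO2 (adjusted p = 0.0119). Its call at 4% pO2 was lost without either 20% library or without the 4% vehicle library, with a limma adjusted p of up to 0.0848.

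Hnrnpa1, Hnrnpa3 and Hnrnpab were also called lower at 1% pO2. Hnrnpa1, a splicing repressor that opposes Srsf1, had 723 and 740.4 FPKM at 20% pO2, 702 and 675 FPKM at 4% pO2 and 582 and 585 FPKM at 1% pO2 in the PT2385 and vehicle libraries. Hnrnpa3 had 554 and 568 FPKM at 20% pO2, 524 and 526 FPKM at 4% pO2 and 455 and 479 FPKM at 1% pO2 in the PT2385 and vehicle libraries. Hnrnpab, which has a role in mRNA transport, had 616 and 596 FPKM at 20% pO2, 564 and 554 FPKM at 4% pO2 and 523 and 507 FPKM at 1% pO2 in the PT2385 and vehicle libraries. In all 3 the 1% libraries were the lowest and lay apart from the others. Hnrnpa1 was lower at 1% pO2, with -0.33 ± 0.04 (SE) (limma, adjusted p = 0.00109), with a difference of -0.09 at 4% pO2 that did not pass (adjusted p = 0.0932). Hnrnpa3 gave -0.26 (adjusted p = 0.002) and Hnrnpab -0.23 (adjusted p = 0.0023) at 1% pO2. Hnrnpab also passed at 4% pO2 (-0.12, limma adjusted p = 0.0274), a call lost without any one of the 20% or 4% libraries (adjusted p of up to 0.133). For Hnrnpa2b1, the measured libraries differed by -0.34 at 4% against 20% pO2 in vehicle and by -0.12 at 1% against 4% pO2 with PT2385, single-library values without a test.

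Hnrnpl and its paralog Hnrnpll, which bind CA repeats, had different orders of level, a difference between paralogs that was not tested. Hnrnpl had 328 and 329.6 FPKM at 20% pO2, 336 and 348 FPKM at 4% pO2 and 269 and 259 FPKM at 1% pO2 in the PT2385 and vehicle libraries. Its 4% libraries were the highest and its 1% libraries the lowest, with no overlap, and it differed by -0.37 ± 0.04 (SE) between 1% and 4% pO2 (limma, adjusted p = 0.0014) and by -0.32 between 1% and 20% pO2 (adjusted p = 0.00175). The difference of 0.06 between 4% and 20% pO2 did not pass (adjusted p = 0.282). Hnrnpll, known in mouse for the alternative exons of CD45 in lymphocytes, had 51.1 and 53.6 FPKM at 20% pO2, 43.3 and 42.4 FPKM at 4% pO2 and 45.1 and 44.2 FPKM at 1% pO2 in the PT2385 and vehicle libraries. All its hypoxic libraries lay below the normoxic ones, with -0.28 at 4% pO2 (limma, adjusted p = 0.00614) and -0.23 at 1% pO2 (adjusted p = 0.0149). Each of the calls of Hnrnpll was lost without the 20% vehicle library, and the one at 1% pO2 also without either 1% library, with adjusted p of up to 0.0542 at 4% and 0.114 at 1% pO2.

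Within the H/F group, whose proteins bind runs of guanine, the paralogs also stood in different orders. Hnrnph1 had 319 and 339 FPKM at 20% pO2, 301 and 321 FPKM at 4% pO2 and 268 and 279 FPKM at 1% pO2 in the PT2385 and vehicle libraries. Hnrnph2, its X-linked paralog, had 67.2 and 67.2 FPKM at 20% pO2, 77.5 and 80.1 FPKM at 4% pO2 and 70.8 and 74.1 FPKM at 1% pO2 in the PT2385 and vehicle libraries. Hnrnph1 was lowest at 1% pO2 (-0.27, limma adjusted p = 0.00178), whereas Hnrnph2 was higher at 4% pO2 (0.22, adjusted p = 0.00788) and did not pass at 1% pO2 (0.11, adjusted p = 0.0962). The call of Hnrnph2 was lost without the 20% vehicle library (adjusted p of up to 0.0636). Hnrnpf lay between 222 and 246 FPKM and passed no test.

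The U-type genes differed in order too. Hnrnpu, or SAF-A, a scaffold and RNA-binding protein of the nucleus, had 365 and 367 FPKM at 20% pO2, 339 and 354 FPKM at 4% pO2 and 317 and 332 FPKM at 1% pO2 in the PT2385 and vehicle libraries. It was lower at 1% pO2 (log2 difference -0.17, limma adjusted p = 0.0106), a call lost without the 20% or the 1% PT2385 library (adjusted p of up to 0.0832). Its paralog Hnrnpul1 had 88.2 and 89.3 FPKM at 20% pO2, 112 and 99.9 FPKM at 4% pO2 and 85.4 and 85.8 FPKM at 1% pO2 in the PT2385 and vehicle libraries. Hnrnpul2 had 41.7 and 43.9 FPKM at 20% pO2, 45.0 and 49.2 FPKM at 4% pO2 and 41.5 and 42.7 FPKM at 1% pO2 in the PT2385 and vehicle libraries. Both paralogs were highest at 4% pO2, which Hnrnpul1 passed against 20% pO2 (0.25, limma adjusted p = 0.0142) and Hnrnpul2 did not (0.14, adjusted p = 0.0659). The call of Hnrnpul1 was lost without the 20% PT2385 or the 4% PT2385 library, with an adjusted p of up to 0.0995.

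Hnrnpk and Hnrnpm made up the rest of the genes lower at 1% pO2. Hnrnpk, a KH-domain protein that binds cytosine-rich RNA and DNA, had 648 and 648 FPKM at 20% pO2, 601 and 610.4 FPKM at 4% pO2 and 573 and 523 FPKM at 1% pO2 in the PT2385 and vehicle libraries. Hnrnpm, which binds GU-rich RNA, had 194 and 205 FPKM at 20% pO2, 196 and 204 FPKM at 4% pO2 and 176 and 185 FPKM at 1% pO2 in the PT2385 and vehicle libraries. Their differences were -0.24 (limma, adjusted p = 0.00775) and -0.14 (adjusted p = 0.0226). The call of Hnrnpk was lost without the 20% vehicle library and that of Hnrnpm without any one of the 20% or 1% libraries, with adjusted p of up to 0.0589 and 0.122.

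Severe hypoxia was also set against moderate hypoxia. At 1% against 4% pO2 16 members were lower, where 23.2% of all genes tested and 27.3% of those averaging 25 FPKM or more were, and 3 were higher (Cirbp, Clk3 and Clk1), where 21.6% of all genes were. The lower ones were 11 of 19 hnRNP genes and 5 of 10 SRSF genes (Srsf1, Srsf3, Srsf4, Srsf7 and Srsf10). Srsf3 (-0.57), Hnrnpl (-0.37), Hnrnpr (-0.31), Srsf1 (-0.24) and Hnrnpa1 (-0.24) kept their call in every fit run, as did the 3 higher genes. The other 11 lower calls were each lost in some fit that left out 1 library, and the count of all calls was 10 to 14 in such fits against 19 in the full one.

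The order of the 3 pO2 levels was then read in each treatment separately. A level that fell from 20% to 4% to 1% pO2 in both treatments was found in 19 of 35 members, 12 hnRNP, 6 SRSF and Clk2, against 9.58% of all genes tested and 13.6% of those averaging 25 FPKM or more. A level that rose at both steps was found in Cirbp and Clk3, against 11.6% of all genes. Since each treatment has 1 library a level, this order is a description without a test.

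**Figure D3:**
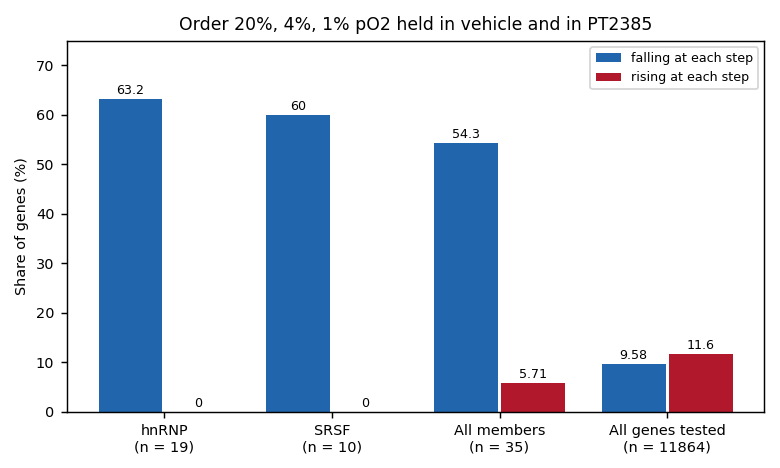
Share of genes (y axis, %) whose level fell (blue) or rose (red) at each step from 20% to 4% to 1% pO2 in vehicle and in PT2385, for hnRNP genes, SRSF genes, all members and all genes tested (x axis, with the number of genes). Falling genes make up 63.2% of the hnRNP genes and 9.58% of all genes.

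The second question was whether PT2385 moved these genes. How far it inhibited HIF-2α in these libraries was not measured. Of the 12 HIF target genes 0 were called between PT2385 and vehicle, with a median difference of 0.075. That list was made to check the pO2 labels, so it does not show whether PT2385 acted on HIF-2α. No member was called in the PT2385 against vehicle contrast of the limma fit, where 0 genes of 11880 were called higher and 1 lower (0.00842%). At an unadjusted p below 0.05 there were 5 of 35 members, against 12.8% of all genes, so the share of members was close to the background. These were Hnrnph1, Srsf1, Clk1, Srsf10 and Srsf3, of which 4 were lower and Srsf3 was higher with PT2385. Srsf10 differed by -0.18 ± 0.05 (SE) (adjusted p = 0.325), with PT2385 below vehicle at all 3 pO2 levels and by -0.29 at 4% pO2. Clk1 differed by -0.15 ± 0.04 (SE) (adjusted p = 0.325), again with PT2385 below vehicle at every level. Srsf3 differed by 0.14 ± 0.05 (SE) (adjusted p = 0.369), with PT2385 above vehicle by 0.01 at 20%, 0.26 at 4% and 0.15 at 1% pO2. PT2385 was below vehicle at all 3 levels in 10 members, against 18.5% of all genes, and above vehicle in 5, against 19.0% of all genes.

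No member passed 1.5-fold with PT2385 at 4% and at 1% pO2, against 0.219% of all genes higher and 0.101% lower. The family medians of PT2385 minus vehicle lay between -0.02 and 0.02 for the SRSF genes and at -0.01 at each level for the hnRNP genes. Those of the 4 CLK genes were -0.11, -0.06 and -0.10 at 20%, 4% and 1% pO2. For Cirbp, the fit gave -0.03 ± 0.07 (SE) (adjusted p = 0.889), with PT2385 below vehicle at 20% and 4% pO2 and above it at 1% pO2. The rise of Cirbp and Clk3 and the fall of the SRSF and hnRNP genes were thus measured with the inhibitor present as well as without it. Whether the hypoxia difference itself varied with PT2385 could not be tested with 1 library a condition.

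**Figure D4:**
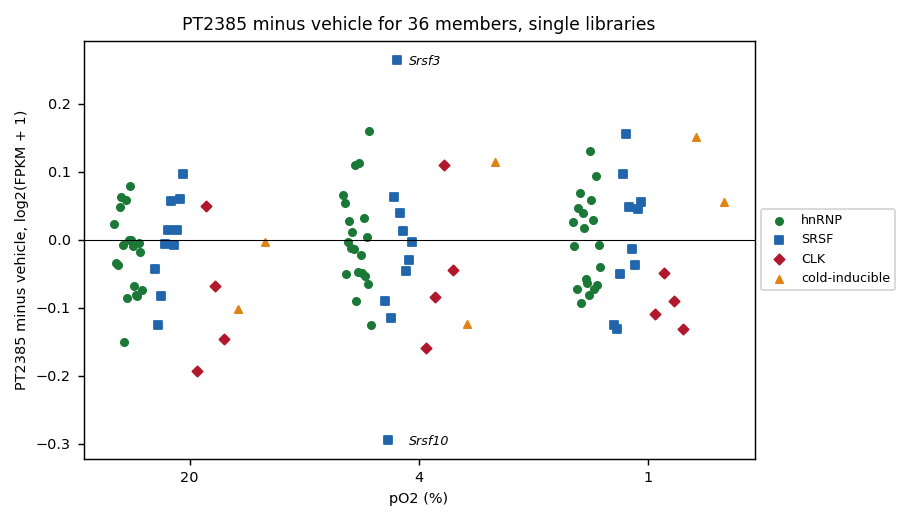
PT2385 minus vehicle in log2(FPKM + 1) (y axis) at each pO2 (x axis) for 36 members, 1 point per gene and level, coloured by family. Hnrnpa2b1 appears at 4% pO2 alone. The points furthest from 0 are Srsf3 at 0.26 and Srsf10 at -0.29, both at 4% pO2.

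Other parts of the splicing apparatus were counted in the same fit. Of 53 genes of the core snRNPs and U2 factors, 28 were lower and 1 higher at 1% pO2, and 19 were lower and 8 higher at 4% pO2. Over all genes tested 22.8% were called lower and 25.8% higher at 1% pO2, and 23.5% lower and 28.5% higher at 4% pO2. Of those averaging 25 FPKM or more, 33.9% were called lower at 1% and 34.1% at 4% pO2, so the snRNP count at 4% pO2 was close to the background of abundant genes. Dhx15, a helicase that takes spliceosomes apart, had 143 and 152 FPKM at 20% pO2, 131 and 136 FPKM at 4% pO2 and 104 and 103 FPKM at 1% pO2 in the PT2385 and vehicle libraries, with a difference of -0.50 at 1% pO2 (limma, adjusted p = 0.000427). Sf3b3, a subunit of the U2 particle, had 85.3 and 82.8 FPKM at 20% pO2, 79.7 and 82.0 FPKM at 4% pO2 and 58.1 and 58.0 FPKM at 1% pO2 in the PT2385 and vehicle libraries and differed by -0.53 (adjusted p = 0.000427). Snrnp70, the U1 protein, went the other way at 4% pO2, with 159 and 157 FPKM at 20% pO2, 215 and 209 FPKM at 4% pO2 and 136 and 142 FPKM at 1% pO2 in the PT2385 and vehicle libraries. It was 0.42 higher at 4% (adjusted p = 0.000657) and lower at 1% pO2 (-0.19, adjusted p = 0.0143). Snrpn, an imprinted homologue of an Sm protein gene, had 6.46 and 6.08 FPKM at 20% pO2, 0.561 and 0.923 FPKM at 4% pO2 and 4.79 and 4.45 FPKM at 1% pO2 in the PT2385 and vehicle libraries, lowest at 4% pO2 (-2.07, adjusted p = 0.000152).

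Of 24 SR-related coactivators, 11 were higher and 3 lower at 4% pO2, and 3 were higher and 9 lower at 1% pO2. Over all genes 28.5% were higher and 23.5% lower at 4% pO2, and 25.8% higher and 22.8% lower at 1% pO2. Of genes averaging 25 FPKM or more, 34.1% were lower at 4% and 33.9% at 1% pO2. The count lower at 1% pO2 was thus close to the background of abundant genes. Scaf11 had 48.1 and 48.9 FPKM at 20% pO2, 78.4 and 78.9 FPKM at 4% pO2 and 44.0 and 46.6 FPKM at 1% pO2 in the PT2385 and vehicle libraries, a difference of 0.69 at 4% pO2 (limma, adjusted p = 0.000163) and -0.10 at 1% pO2 (adjusted p = 0.136). Luc7l3 and Scaf4 were likewise higher at 4% pO2, by 0.47 (adjusted p = 0.00149) and 0.45 (adjusted p = 0.00271). Rsrp1, an arginine-serine rich protein gene, instead rose at both levels, with 57.7 and 57.8 FPKM at 20% pO2, 73.0 and 74.4 FPKM at 4% pO2 and 92.9 and 93.1 FPKM at 1% pO2 in the PT2385 and vehicle libraries, like Cirbp and Clk3 in its order. It differed by 0.68 at 1% pO2 (adjusted p = 0.000137).

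Of 17 genes for other SR kinases, phosphatases and importins, 4 were higher and 8 lower at 1% pO2, and 6 were higher and 4 lower at 4% pO2. The genes higher at 1% pO2 and lower at 4% pO2 were close in share to the background of 25.8% and 23.5% of all genes. That background was 22.8% lower at 1% and 28.5% higher at 4% pO2. Among genes averaging 25 FPKM or more, 33.9% were lower at 1% and 34.1% at 4% pO2. Dyrk1b, a kinase of the same superfamily as the CLKs, had 1.80 and 2.14 FPKM at 20% pO2, 6.58 and 6.65 FPKM at 4% pO2 and 6.78 and 6.05 FPKM at 1% pO2 in the PT2385 and vehicle libraries, and all 4 hypoxic libraries exceeded both normoxic ones (1.32 at 1% pO2, limma adjusted p = 0.000415). Ppp1r10, a nuclear regulator of protein phosphatase 1, had 24.9 and 24.1 FPKM at 20% pO2, 34.5 and 36.8 FPKM at 4% pO2 and 15.1 and 15.1 FPKM at 1% pO2 in the PT2385 and vehicle libraries, highest at 4% and lowest at 1% pO2 (-1.19 between them, adjusted p = 0.000227). Top1, which can phosphorylate SR proteins besides relaxing DNA, was lower at 1% pO2 (-0.38, adjusted p = 0.00105). Hsp90aa1, a chaperone counted here for its part in SR kinase localisation, was 0.44 higher at 4% pO2 (adjusted p = 0.000576).

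Among 48 other sequence-specific splicing factors, 4 were higher and 23 lower at 1% pO2, and 16 were higher and 10 lower at 4% pO2. The background over all genes was 25.8% higher and 22.8% lower at 1% and 28.5% higher and 23.5% lower at 4% pO2. Among genes averaging 25 FPKM or more it was 33.9% lower at 1% and 34.1% lower at 4% pO2. Rbm24, a muscle splicing factor, had 14.8 and 18.4 FPKM at 20% pO2, 3.59 and 3.71 FPKM at 4% pO2 and 4.90 and 5.31 FPKM at 1% pO2 in the PT2385 and vehicle libraries, lower at 4% pO2 (-1.91, limma adjusted p = 6.2e-05). Mbnl2, a muscleblind protein, had 49.1 and 50.1 FPKM at 20% pO2, 79.99 and 88.7 FPKM at 4% pO2 and 73.9 and 75.5 FPKM at 1% pO2 in the PT2385 and vehicle libraries, higher by 0.75 at 4% pO2 (adjusted p = 0.000158). Rbfox2, which binds GCAUG, had 34.5 and 34.2 FPKM at 20% pO2, 53.9 and 62.4 FPKM at 4% pO2 and 33.4 and 36.8 FPKM at 1% pO2 in the PT2385 and vehicle libraries, a rise at 4% pO2 (0.74, adjusted p = 0.00044) that did not pass at 1% pO2 (0.03, adjusted p = 0.748). Pcbp4, a KH-domain protein like Hnrnpk, was lower at 1% pO2 (-0.81, adjusted p = 7.33e-05).

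The decay pathway that removes poison-exon transcripts had 22 genes tested, of which 10 were lower and 4 higher at 4% pO2 and 9 were lower and 1 higher at 1% pO2. The background was 23.5% lower and 28.5% higher at 4% pO2 and 22.8% lower and 25.8% higher at 1% pO2 over all genes, with 34.1% lower at 4% and 33.9% lower at 1% pO2 among genes averaging 25 FPKM or more. Magohb, an exon junction protein, had 61.4 and 53.6 FPKM at 20% pO2, 31.4 and 33.3 FPKM at 4% pO2 and 30.3 and 29.4 FPKM at 1% pO2 in the PT2385 and vehicle libraries, lower at 1% pO2 (-0.92, limma adjusted p = 0.000357). Its paralog Magoh was lower at 4% pO2 (-0.43, adjusted p = 0.000721) and did not pass at 1% pO2 (-0.09, adjusted p = 0.155). Gspt1, a release factor, was lower at 1% pO2 (-0.46, adjusted p = 0.000433).

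Heat and cold shock genes were listed beside Cirbp and Rbm3. Of 10 tested 3 were higher and 4 lower at 1% pO2, and 1 was higher and 4 lower at 4% pO2. The background over all genes was 25.8% higher and 22.8% lower at 1% and 28.5% higher and 23.5% lower at 4% pO2. Among genes averaging 25 FPKM or more it was 33.9% lower at 1% and 34.1% lower at 4% pO2. Hsph1, an HSP110 chaperone, had 129.6 and 127 FPKM at 20% pO2, 83.5 and 78.3 FPKM at 4% pO2 and 54.8 and 56.2 FPKM at 1% pO2 in the PT2385 and vehicle libraries, a difference of -1.20 at 1% pO2 (limma, adjusted p = 3.49e-05). Hspa8 (-0.52, adjusted p = 0.000106) and Hsf1, the heat shock transcription factor (-0.61, adjusted p = 0.000435), were lower at 1% pO2. Hspb1 was lower at 4% (-0.55, adjusted p = 0.000147) and higher at 1% pO2 (0.33, adjusted p = 0.00104). With PT2385 0 genes of any of these lists were called by limma.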

How the data were processed

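RNA of mouse primary myoblasts was sequenced by BGI, 1 library for each of 6 conditions. The deposited values were taken as FPKM: the table names no unit, and the authors' notes list Cuffdiff 2.2.1, which writes such values, with HISAT2 2.1.0, SAMtools 1.3.1 and Cufflinks. The supplementary methods name TopHat2 and GRCm38 gene models. Strandedness is not given in the sources used here.

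Genes with a mean of at least 1 FPKM (11971 of 54834) entered limma 3.58.1 (R 4.3.3) on log2(FPKM + 1), with pO2 and treatment as additive terms, a trended prior variance and Benjamini-Hochberg adjustment over all genes, and a call needed an adjusted p below 0.05. With 2 residual degrees of freedom per gene, the PT2385 and vehicle libraries of a pO2 level served as replicates. The spread behind the p-values is thus how far the PT2385 minus vehicle difference varies between pO2 levels. No source says which cultures the libraries shared, so this spread may be technical. A 0 in a gene whose other values had a median of at least 5 FPKM was left out. Single-library differences were held against a 1.5-fold limit without a test. The script was tested on simulated data.

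Depth was estimated from the steps between the lowest values, of which 92.1% to 93.7% lay within 0.15 of a whole multiple of 1 fragment; errors from it cover counting only. Gene positions, overlaps and transcript types came from GENCODE release M21 (GRCm38), which held 54719 of the gene IDs, and promoters from RefSeq (GRCm38.p6). Named with all values were members called in any contrast, past 1.5-fold, or listed at 0 and the 5 most abundant, and up to 4 called genes of each other list were named, some with their difference alone. A gene that this rule names is not reported here. The members and lists were chosen with earlier results of these data known. Alternatives were other pseudocounts, filters, scalings and prior variances, no treatment term, zeros kept, and each library left out; the background at 25 FPKM was added after seeing the data.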

Additional observations from a re-analysis of the deposited data

Results flagged for a closer look

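Hnrnpl, Hnrnpul1 and Hnrnpul2 were flagged for lying above the 20% pO2 library of the same treatment at 4% and below it at 1% pO2. This held with PT2385 and with vehicle alike. The share of all genes with this order was not counted, and Snrnp70 and Ppp1r10 of the other lists stood in it too. The flagged genes were picked from these same values, so the p-values of 1% against 4% pO2 lend the order no further support. The difference between 1% and 4% pO2, which does not test either level against 20%, was -0.3722 for Hnrnpl, a splicing factor that binds CA repeats (limma, adjusted p = 0.0014). It was -0.3004 for Hnrnpul1 (limma, adjusted p = 0.0092) and -0.158 for Hnrnpul2 (limma, adjusted p = 0.0466), both relatives of the nuclear scaffold gene Hnrnpu. The limma adjusted p was 0.000936 to 0.0189 over the alternatives for Hnrnpl, 0.00699 to 0.0595 for Hnrnpul1, which was lost without the 1% PT2385 library, and 0.0428 to 0.241 for Hnrnpul2, which was lost whichever library was left out. At 4% against 20% pO2 Hnrnpl (0.06, limma adjusted p = 0.282) and Hnrnpul2 (0.14, adjusted p = 0.0659) did not pass, and Hnrnpul1 did (0.25, adjusted p = 0.0142). At 1% against 20% pO2 Hnrnpl passed (-0.32, limma adjusted p = 0.00175). The differences from 20% pO2 at 1% did not pass for either relative (limma, adjusted p = 0.499 for Hnrnpul1 and 0.734 for Hnrnpul2).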

How the results depend on the processing

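The labels give no replicate numbers. The full fit sets pO2 levels against each other within a treatment, and the fit without the treatment term is its unpaired counterpart. The 65 calls of single members gave 845 values under the alternatives, of which 722 kept their direction and passed, 123 kept their direction and did not pass, and 0 turned round. The count of members called at 1% against 4% pO2, 19 in the full fit, moved to 9 with a constant prior variance, 12 without a filter on low values and 12 without the treatment term. With each library left out in turn it was 10 to 14, while the counts were 24 to 28 (28 in the full fit) at 1% and 12 to 17 (18 in the full fit) at 4% against 20% pO2, and 0 to 0 for PT2385. The lone library that such a fit leaves at a pO2 level is assumed to vary like the others. Calls kept in all these fits were 3 of 4 higher and 20 of 24 lower at 1%, and 1 of 5 higher and 9 of 13 lower at 4% against 20% pO2. The 2 members 1.5-fold higher at 1% pO2 became 0 at 2-fold and 4 in the vehicle libraries alone, where Srsf3 and Hnrnpdl also passed downward. Rescaling the libraries by the median ratio moved the hnRNP median difference from -0.10 to -0.089 at 4% pO2 and from -0.27 to -0.24 at 1% pO2, and the SRSF median from -0.34 to -0.31 at 1% pO2. Other counts and medians stayed within 1.5 times or within the spread between libraries. Of the tested members depth limits Cirbp most, with an estimated 221 fragments at its lowest if its shortest coding transcript is used.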
